A study of Homo sapiens with 8 samples.

Results

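The genes described here are 10 factors of the endoplasmic reticulum (ER) folding machinery that ATF6 and XBP1 control: HSPA5, HSP90B1, HYOU1, CALR, PDIA4, PDIA6, DNAJB9, SDF2L1, HERPUD1 and XBP1 itself. They were chosen by symbol, as 10 of the 60230 genes in the count table, and all 10 were among the 13400 genes with enough counts to be tested. The study measured RNA of HepG2 cells, a human liver cancer line, that overexpress the drug-metabolizing enzyme CYP2C19 and are kept in blasticidin. The cells received the solvent DMSO or compound 4 (metylcresol), compound 5 (tetrabut) or compound 6 (cyclohexil), which are bisphenol antioxidants of the plastic industry, and each of these 4 groups had 2 libraries. Each compound was given at its own half-maximal inhibitory concentration, and the study describes these concentrations as rather comparable for compounds 4, 5 and 6. They were measured after a longer treatment than the one before RNA extraction, so an equal effect at harvest is not shown. Whether the line is a single clone is not given in the sources used here. The labels name the libraries of a group day 1 and day 2, while the methods give the same incubation time for every group, so day is used here as the replicate number. Nothing states that the libraries of a group came from separate cultures, so p-values measure only the spread between these samples, which may be technical.

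Proteins that enter the ER are folded there by chaperones, joined by disulfide isomerases and, when they fail to fold, sent to degradation. When unfolded proteins build up, the sensor IRE1 splices the XBP1 messenger RNA, ATF6 is cut to release a transcription factor, and PERK slows translation while ATF4 is made. Spliced XBP1 and cut ATF6 bind short promoter elements of folding genes, and the liver, which secretes much protein, relies on this response. Counts per gene sum all forms of a transcript, so they cannot show how much XBP1 was spliced.

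Total counts lay between 9791659 and 17814595 per library. Levels are in CPM, which are counts brought to the same library size after TMM normalization, and differences are log2-fold changes from edgeR's quasi-likelihood test in a fit of all 8 libraries, with Benjamini-Hochberg adjustment over the 13400 genes and an adjusted p under 0.05 as the threshold. CYP2C19 was counted in every library, between 16.4 and 52.7 CPM, and the hepatocyte gene ALB, encoding albumin, lay between 14400 and 20700 CPM. Of 10 markers of leukocytes, endothelium and stroma, 3 were at 0 in every library. Their summed level was 21.9 and 26.9 CPM under DMSO, 41.2 and 42.2 CPM under compound 4, 21.4 and 27.7 CPM under compound 5, and 32.6 and 32.9 CPM under compound 6. Most of this sum was CD68, a lysosomal protein that is not limited to macrophages, and its part in the results was not tested. Of all tested genes, 9.51%, 8.30% and 0.575% passed the threshold under compounds 4, 5 and 6. Of the 10 hepatocyte markers, AFP, APOB, TF and APOA1 fell under compound 4, FGB rose under compound 5 and 0 passed under compound 6 (with a replicate block, 2 passed under compound 5 and 2 under compound 6). The 4 became 0 if either DMSO replicate or compound 4 replicate 2 was left out. APOA1 was lowest under all 3 compounds (-0.90, -0.52 and -0.91), with TTR (0.25) highest under compound 4 and HNF4A (0.07) under compound 6. Among the 3 tested markers of other cells, CD14 was highest (1.42, 0.41 and 1.15) and VWF lowest (-1.10, -1.88 and -0.59), short of the threshold at very low counts. CD68 itself rose under compound 4 by 0.80 on the log2 scale (adjusted p = 0.016), and this was lost without DMSO replicate 2 or either compound 4 replicate. In bulk RNA, fewer cells and less RNA per cell cannot be told apart.

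The promoters of these genes were searched for the elements through which ATF6 and XBP1 are known to act, and the matches found are shown. A window from 250 bases before to 50 bases after each annotated start (RefSeq, GRCh38.p14) was searched on both strands for 3 motifs. The ER stress element (ERSE) was searched as CCAAT, 9 bases of any kind and CCACG, the element ERSE-II as ATTGG, 1 base and CCACG, and the unfolded protein response element (UPRE) as TGACGTGG. The matches follow 5′ to 3′ on the strand of the gene, with the match in capitals and 5 bases on either side.
HSPA5, chr9:125241386-125241414, minus strand: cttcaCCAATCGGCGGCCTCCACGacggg
HSP90B1, chr12:103930211-103930239, plus strand: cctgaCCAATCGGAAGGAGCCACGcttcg
HSP90B1, chr12:103930316-103930344, plus strand: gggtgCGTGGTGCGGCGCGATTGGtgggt
CALR, chr19:12938379-12938407, plus strand: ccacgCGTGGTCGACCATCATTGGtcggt
PDIA6, chr2:10812848-10812876, minus strand: ccggaCCAATGAGCCGCAGCCACGgcttg
XBP1, chr22:28800598-28800626, minus strand: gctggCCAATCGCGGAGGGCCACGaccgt
HYOU1, chr11:119057375-119057398, minus strand: ccccgTGACGTGGTCCAATcccag
HYOU1, chr11:119057269-119057289, minus strand: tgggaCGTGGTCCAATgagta
HERPUD1, chr16:56932020-56932040, plus strand: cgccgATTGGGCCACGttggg
SDF2L1, chr22:21642109-21642129, plus strand: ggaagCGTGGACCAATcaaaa

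The first 6 lines hold an ERSE, which 5 of the 10 genes carried, with 2 matches in HSP90B1. The last 4 lines hold an ERSE-II, which 3 of the 10 genes carried, and the first of the HYOU1 lines also holds a UPRE that overlaps its ERSE-II. Among 35116 promoters of the same length, 27 (0.0769%) held an ERSE, 19 (0.0541%) an ERSE-II and 256 (0.729%) a UPRE. These shares are per promoter, while the counts of the 10 are per gene. The 10 were chosen as genes that ATF6 and XBP1 control, so the contrast with all promoters is not a result about them. PDIA4, PDIA6 and XBP1 each had 2 promoters, and PDIA6 and XBP1 held their match in 1 of the 2. The PDIA6 match lay before a start inside the span of the gene, which is chr2:10783391-10837977 on the minus strand. No match lay in the windows of DNAJB9 or PDIA4, which says only that these letters are not there. The matches began between 225 bases before the start, in CALR, and 52 bases before it, in XBP1.

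**Figure D1:**
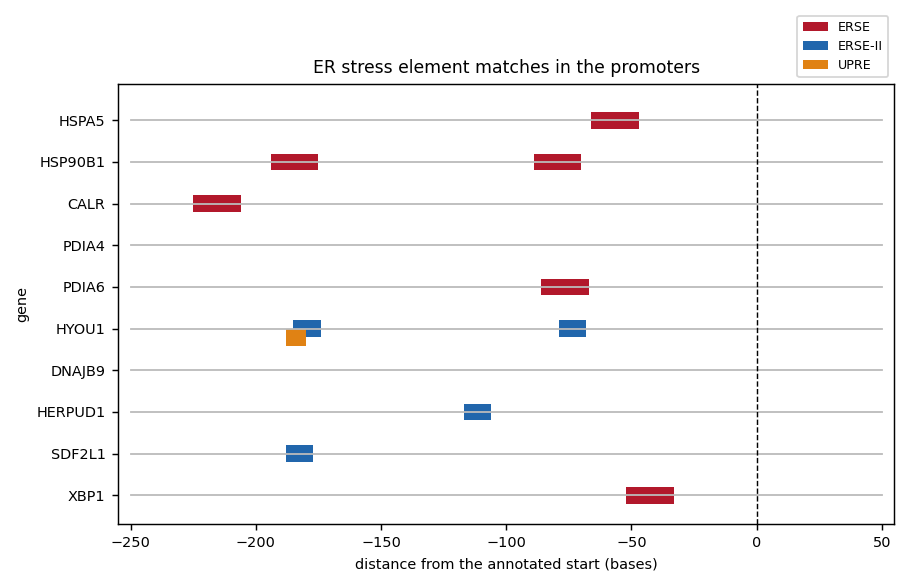
Position of each motif match (coloured bars) relative to the annotated start whose window holds it (dashed line), in bases, for the 10 genes, with the searched window as a grey line. For PDIA6 this start lies inside the gene. 8 of the 10 genes hold a match, and DNAJB9 and PDIA4 hold none.

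Against DMSO, the 10 genes did not move as a block. DNAJB9 rose under compound 4 and rose more than any other of the 10 under compound 5, HERPUD1 and HYOU1 rose under compound 5, and CALR and XBP1 fell under compound 4. No member passed the threshold under compound 6. Of the 10, 3 passed under compound 4 (1 higher, 2 lower), beside 9.51% of all tested genes. Under compound 5, 3 passed, all higher, beside 8.30% of all tested genes. Under compound 6, 0 passed in edgeR's quasi-likelihood test, beside 0.575% of all tested genes, while 5 had an unadjusted p under 0.05, beside 18.6% of all tested genes. The DESeq2 Wald test called 2, CALR and PDIA4, beside 4.33% of the genes to which it gave an adjusted p. Compounds 4, 5 and 6 gave median log2-fold changes of the 10 of -0.28, 0.12 and -0.22, with medians over all tested genes of 0.01, 0 and 0.02. The 3 comparisons share the DMSO libraries. Leaving out either DMSO replicate leaves a group of 1 library, and the calls among all tested genes then also fell under each compound. Without compound 4 replicate 2 they fell under compound 4 too. Losses of member calls in these fits are therefore not particular to the 10 genes. When either DMSO replicate or compound 4 replicate 2 was left out, 0 members passed under compound 4. Without either DMSO replicate, 1 member, DNAJB9, passed under compound 5.

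**Figure D2:**
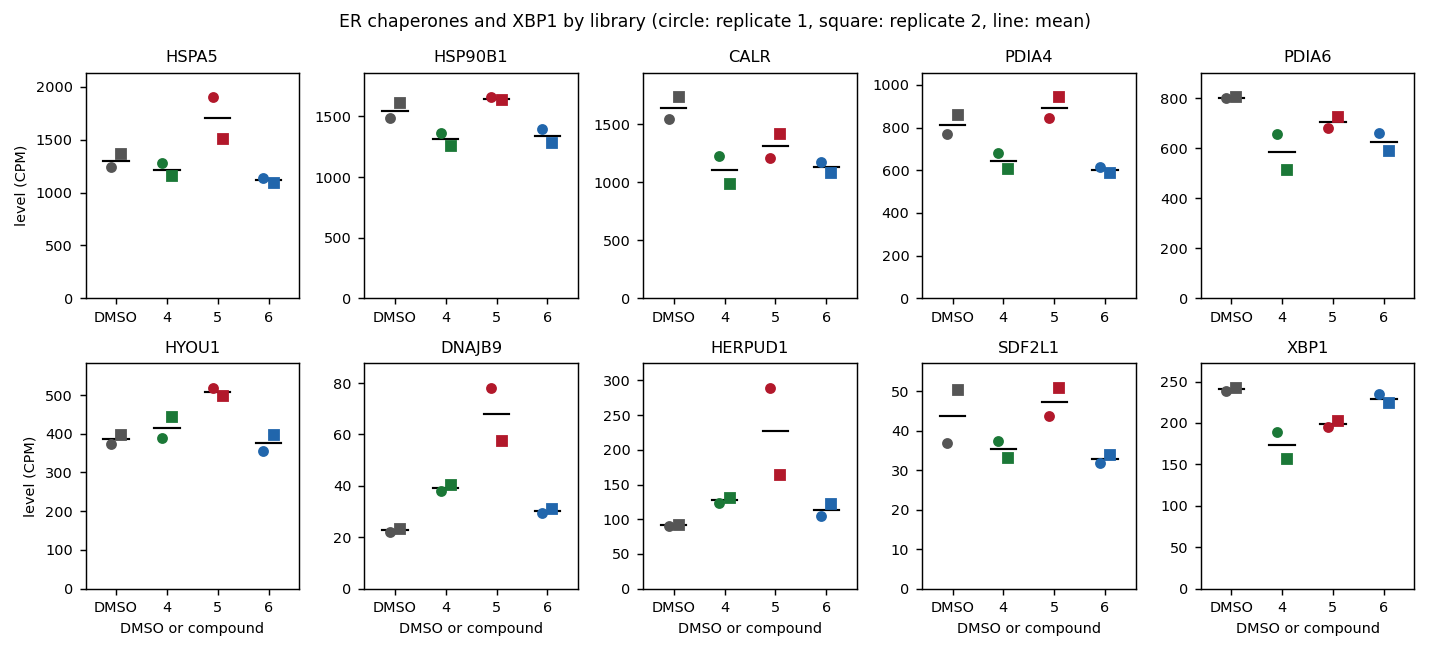
Level of each gene in CPM (vertical axis, from 0) in the 8 libraries, by group, with replicate 1 as a circle, replicate 2 as a square and the mean as a line. DNAJB9 and HERPUD1 are highest in both compound 5 libraries, and their compound 5 replicates stand farther apart than those of the other groups.

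HSPA5, also called BiP, is the HSP70 chaperone of the ER and holds the stress sensors inactive when folding proceeds. Its level was 1238 and 1367 CPM in the DMSO libraries, 1284 and 1153 CPM under compound 4, 1901 and 1507 CPM under compound 5, and 1137 and 1095 CPM under compound 6. Both compound 5 libraries lay above all 6 others, and the compound 4 libraries overlapped DMSO. The log2-fold change was 0.39 ± 0.12 (SE) under compound 5, with an adjusted p of 0.083, which missed the threshold. It was -0.10 ± 0.12 under compound 4 (adjusted p = 0.66) and -0.22 ± 0.12 under compound 6 (adjusted p = 0.37). The compound 5 value was 0.20 without compound 5 replicate 1 (adjusted p = 0.46) and 0.55 without replicate 2 (adjusted p = 0.023).

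HSP90B1, also called GRP94, is the HSP90 chaperone of the ER. Its 8 libraries spanned a narrow range, with 1485 and 1609 CPM under DMSO, 1363 and 1260 under compound 4, 1657 and 1632 under compound 5, and 1393 and 1282 under compound 6. Compounds 4 and 6 lay below DMSO and compound 5 above it, without overlap. None of the differences passed, with log2-fold changes of -0.24 ± 0.10 (SE), 0.09 ± 0.10 and -0.21 ± 0.10 for compounds 4, 5 and 6 (adjusted p = 0.15, 0.58 and 0.28).

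HYOU1, also called GRP170, is a large relative of HSP70 that exchanges the nucleotide bound to HSPA5. It was at 374.5 and 397.4 CPM under DMSO and 388.6 and 442.5 CPM under compound 4. Under compound 5 it was at 519.4 and 498.6 CPM, and under compound 6 at 356.2 and 397.8 CPM. The compound 5 libraries lay above all others, while compounds 4 and 6 overlapped DMSO. The rise under compound 5 was 0.40 ± 0.11 (SE) on the log2 scale and lay at the threshold, with an adjusted p of 0.0498. It passed in 6 of 14 alternative settings and was lost in 8, among them leaving out either DMSO library, either compound 5 library or either compound 6 library, where the adjusted p lay between 0.061 and 0.23. The antisense gene AP003392.3 shares 666 exon bases with HYOU1, and whether the counting used strand is not given in the sources used here.

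CALR, calreticulin, is a chaperone that binds the sugar chains of new glycoproteins and stores calcium. It was the member with the highest level per kilobase of exon under DMSO, at 604 ± 47.6 CPM per kb (SD, n = 2), against 333 ± 23.4 for HSPA5 and 330 ± 18.7 for HSP90B1. Its level was 1547 and 1730 CPM under DMSO, 1222 and 980.7 under compound 4, 1212 and 1412 under compound 5, and 1177 and 1081 under compound 6. All 6 treated libraries lay below both DMSO libraries. CALR fell by 0.57 ± 0.13 (SE) on the log2 scale under compound 4, with an adjusted p of 0.027. Compound 6 gave a value of similar size, -0.54 ± 0.13, which missed the threshold at an adjusted p of 0.084, and compound 5 gave -0.32 ± 0.13 (adjusted p = 0.15). The compound 4 call was lost when DMSO replicate 1 (adjusted p = 0.075), DMSO replicate 2 (0.21) or compound 4 replicate 2 (0.17) was left out. The compound 6 value passed when the 4 libraries of compound 6 and DMSO were fitted alone (adjusted p = 0.018). CALR shares 270 exon bases with the antisense gene AC092069.1.

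PDIA4 and PDIA6 are protein disulfide isomerases, which form and rearrange disulfide bonds in proteins being folded. PDIA4 was at 768.4 and 859.8 CPM under DMSO, 679.3 and 604.3 under compound 4, 843.7 and 941.8 under compound 5, and 613.2 and 588 under compound 6. PDIA6 was at 799.7 and 804 CPM under DMSO, 657.5 and 514.5 under compound 4, 682.8 and 724.1 under compound 5, and 661.4 and 590.7 under compound 6. The compound 4 and compound 6 libraries lay below DMSO for both genes, and compound 5 overlapped DMSO for PDIA4 and lay below it for PDIA6. None of these differences passed in edgeR's quasi-likelihood test of all 8 libraries. For PDIA4 the log2-fold changes were -0.34 ± 0.11 (SE), 0.13 ± 0.11 and -0.44 ± 0.11 under compounds 4, 5 and 6 (adjusted p = 0.077, 0.44 and 0.088). For PDIA6 they were -0.45 ± 0.13, -0.19 ± 0.13 and -0.36 ± 0.13 (adjusted p = 0.052, 0.35 and 0.18). When the replicate number entered the fit as a block, PDIA6 passed under compound 4 (adjusted p = 0.033). In the DESeq2 Wald test, PDIA4 passed under compounds 4 and 6 (adjusted p = 0.042 and 0.011) and PDIA6 under compound 4 (0.011). When the libraries of compound 6 and DMSO were fitted alone, PDIA4 and PDIA6 passed (adjusted p = 0.028 and 0.0497). PDIA6 shares 1033 exon bases with ATP6V1C2 on the opposite strand.

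DNAJB9, also called ERdj4, is a J-domain partner of HSPA5 that helps remove misfolded proteins. It had the lowest level of the 10 per kilobase of exon under DMSO, at 7.97 ± 0.29 CPM per kb (SD, n = 2), and its counts were between 215 and 1008 per library. Its level was 22.03 and 23.2 CPM under DMSO, 38.09 and 40.15 under compound 4, 78.29 and 57.36 under compound 5, and 29.53 and 30.79 under compound 6. The 4 groups did not overlap, in the order compound 5, compound 4, compound 6 and DMSO. DNAJB9 rose by 1.58 ± 0.16 (SE) on the log2 scale under compound 5, 2.99-fold, with an adjusted p of 0.0019. This call held in all 14 alternative settings, with an adjusted p of at most 0.038. Under compound 4 it rose by 0.79 ± 0.16, 1.73-fold (adjusted p = 0.018), and this call was lost when DMSO replicate 1 (adjusted p = 0.09), DMSO replicate 2 (0.14) or compound 4 replicate 2 (0.11) was left out. The value under compound 6 was 0.41 ± 0.16 (adjusted p = 0.21). Its exons share 183 bases with THAP5 and 99 bases with PNPLA8, both on the opposite strand.

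SDF2L1 is a cofactor of the ER chaperones that keeps substrates of HSPA5 from aggregating. Its level was 37 and 50.41 CPM under DMSO, 37.44 and 33.15 under compound 4, 43.8 and 50.93 under compound 5, and 31.69 and 33.92 under compound 6. The DMSO replicates stood far apart, and only the compound 6 libraries lay clear of them. No comparison with DMSO passed, with values of -0.31 ± 0.16 (SE), 0.11 ± 0.16 and -0.42 ± 0.16 on the log2 scale for compounds 4, 5 and 6 (adjusted p = 0.25, 0.67 and 0.22).

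HERPUD1 sits in the ER membrane and organizes the complex that sends misfolded proteins to the proteasome. It was at 90.19 and 92.28 CPM under DMSO, 123.4 and 130.6 under compound 4, 289.8 and 163.3 under compound 5, and 104.2 and 122.6 under compound 6. The groups did not overlap, but compound 5 replicate 1 stood well above replicate 2. HERPUD1 rose by 1.31 ± 0.22 (SE) on the log2 scale under compound 5, 2.48-fold, with an adjusted p of 0.012. The difference was 1.68 between the day 1 libraries and 0.82 between the day 2 libraries. The fitted value was 0.83 without compound 5 replicate 1 and 1.67 without replicate 2, and passed in both (adjusted p = 0.028 and 0.00072). The call was lost without DMSO replicate 1 (adjusted p = 0.086) and without DMSO replicate 2 (0.11). Under compounds 4 and 6 the values were 0.48 ± 0.22 and 0.31 ± 0.22 (adjusted p = 0.20 and 0.48). Their SE comes from the fit of all 8 libraries, including the compound 5 replicates that stood apart. The compound 4 value passed when the libraries of compound 4 and DMSO were fitted alone (0.47, adjusted p = 0.027). It also passed without a filter on low counts (adjusted p = 0.0070), and missed the threshold in the other settings that keep 2 libraries in every group. Over all 14 alternatives it passed in 4 and lay between 0.44 and 0.50. The remaining passes came when compound 5 replicate 1 (0.47) or compound 5 replicate 2 (0.48) was left out.

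XBP1 encodes the transcription factor of the IRE1 arm, and its gene carries an ERSE itself. Its level was 238.7 and 242.8 CPM under DMSO, 188.9 and 156.7 under compound 4, 195.4 and 202.4 under compound 5, and 235 and 224 under compound 6. All 6 treated libraries lay below DMSO, with compound 6 the nearest to it. XBP1 fell by 0.48 ± 0.11 (SE) on the log2 scale under compound 4, with an adjusted p of 0.029. It was at -0.28 ± 0.11 under compound 5 (adjusted p = 0.14) and -0.07 ± 0.11 under compound 6 (adjusted p = 0.78). The compound 4 call was lost without either DMSO library (adjusted p = 0.11 and 0.20), without compound 4 replicate 2 (0.16) and without either compound 6 library (0.054 and 0.0504).

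**Figure D3:**
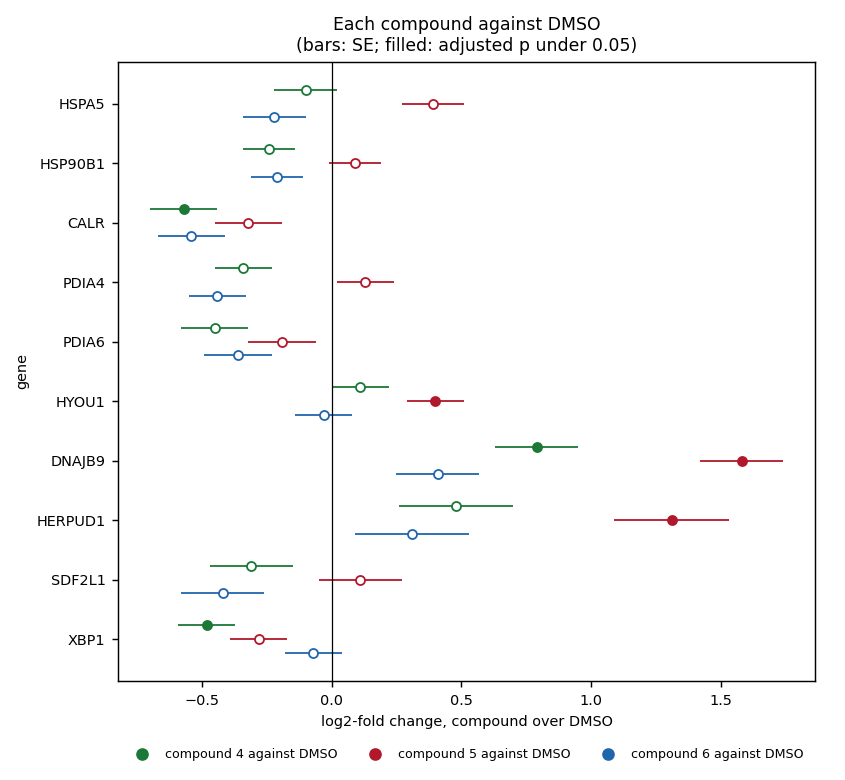
Log2-fold change of each gene under compounds 4, 5 and 6 against DMSO (horizontal axis), with bars for 1 SE and filled points for an adjusted p under 0.05. DNAJB9 and HERPUD1 lie farthest to the right under compound 5, at 1.58 and 1.31, and CALR farthest to the left, at -0.57 under compound 4.

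The compounds were also compared with each other in the same fit, in 3 pairs, with p-values adjusted over the 13400 genes of each pair. According to the names in the study's methods, compounds 4 and 6 share the methylene bridge and the ring methyl groups and differ in carrying tert-butyl or cyclohexyl groups, while compound 5 has a methyl group on the bridge and tert-butyl groups in place of the ring methyl groups. Compound 5 gave the higher level for most of the 10 genes. Against compound 5, compound 6 was lower in 9 of the 10 and compound 4 lower in 10 of the 10. These pairs share the compound 5 libraries.

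Between compounds 6 and 5, 2 of the 10 passed, beside 1.03% of all tested genes, and the libraries of the groups did not overlap for 10 of the 10, beside 49.4% of all tested genes. DNAJB9 was lower under compound 6 by -1.17 ± 0.15 (SE) on the log2 scale (adjusted p = 0.011), and PDIA4 by -0.57 ± 0.11 (adjusted p = 0.045). HERPUD1, at 0.501 of its compound 5 level, and HSPA5, at 0.655 of it, missed the threshold (adjusted p = 0.065 and 0.054). Without compound 5 replicate 1 the log2-fold changes of HERPUD1 and HSPA5 were -0.53 and -0.43 (adjusted p = 0.15 and 0.18), and without replicate 2 they were -1.35 and -0.77 and passed (adjusted p = 0.011 and 0.033). When the replicate number entered the fit as a block, 4 passed, with HSPA5 (adjusted p = 0.035) and HYOU1 (0.0499) added. Without either compound 6 replicate, 0 passed, and without either DMSO replicate, without either compound 4 replicate or without compound 5 replicate 1, only DNAJB9 passed. XBP1 was the member that stood higher under compound 6, at 0.21 ± 0.11 (adjusted p = 0.35).

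Between compounds 4 and 5, 0 of the 10 passed in edgeR's quasi-likelihood test, beside 0.313% of all tested genes, while 7 had an unadjusted p under 0.05, beside 16.2% of all tested genes, and 4 passed in the DESeq2 Wald test, beside 1.57%. DNAJB9 and HERPUD1 had the largest values, -0.79 ± 0.15 (SE; 95% interval -1.13 to -0.45) and -0.83 ± 0.22 (-1.32 to -0.34), with adjusted p of 0.072 and 0.14. Without compound 5 replicate 2 they were -1.0 and -1.19 and passed (adjusted p = 0.037 and 0.018), and without replicate 1 they were -0.54 and -0.36 and did not (adjusted p = 0.12 and 0.25).

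Between compounds 4 and 6, 0 of the 10 passed in edgeR's quasi-likelihood test, beside 0% of all tested genes, 2 had an unadjusted p under 0.05, beside 7.05%, and 0 passed in the DESeq2 Wald test, beside 0.44%. XBP1 was at -0.41 ± 0.11 (SE; 95% interval -0.66 to -0.16; adjusted p = 0.42) and DNAJB9 at 0.38 ± 0.16 (0.03 to 0.72; adjusted p = 0.65). For HSPA5 the interval was -0.15 to 0.41, for CALR -0.33 to 0.26 and for HERPUD1 -0.33 to 0.65, so differences of these sizes in either direction could not be told from none.

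**Figure D4:**
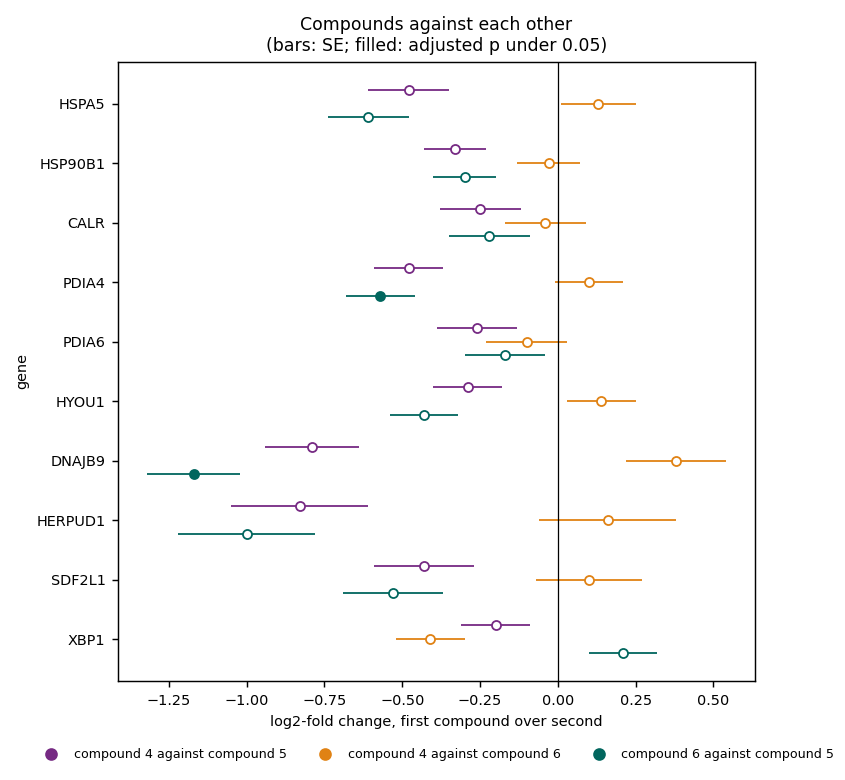
Log2-fold change of each gene between the compounds (horizontal axis, first compound over second), with bars for 1 SE and filled points for an adjusted p under 0.05. Against compound 5, values lie left of 0 for 10 of the 10 genes under compound 4 and for 9 of the 10 under compound 6, and the filled points are DNAJB9 and PDIA4 for compound 6 against compound 5.

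Other genes of folding and stress were taken from 7 lists. Their counts under compounds 4, 5 and 6 stand beside 9.51%, 8.30% and 0.575% of all tested genes past the threshold. Without either DMSO replicate, the calls among all tested genes also fell under each compound, as did those under compound 5 without compound 5 replicate 1. A list count that fell there is therefore not particular to its list. Among 22 genes of protein entry into the ER and signal peptide removal, 12 rose under compound 5 and 0 under compounds 4 and 6 (13, 1 and 0 with the block), with median log2-fold changes of 0.42, 0.10 and -0.07. SRPRB, a subunit of the receptor for the signal recognition particle, had the highest value under compound 5, at 0.73 ± 0.12 (SE; adjusted p = 0.011), and SRP9, a subunit of that particle, the lowest, at -0.11 ± 0.16. Against compound 5, 6 of the 22 were lower under compound 6 and 1 under compound 4, beside 1.03% and 0.313% of all tested genes. With the block they were 10 and 2, beside 269 and 128 of the 13400 tested genes. None of the other extremes of the list passed, which were TRAM1 (0.38) and SRP9 (-0.28) under compound 4 and SPCS3 (0.13) and SEC11C (-0.39) under compound 6. The 12 became 0 without either DMSO replicate and 2 without compound 5 replicate 1. The 6 became 3 without either DMSO replicate, 2 without compound 5 replicate 1, and 0 and 1 when compound 6 replicates 1 and 2 were left out. The 1 became 0 when any of the 8 libraries was left out.

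Of 21 tested genes of ER-associated degradation, the pathway HERPUD1 serves, 5 rose under compound 5 (8 with the block), namely SELENOS, SYVN1, AUP1, UBE2J1 and EDEM1. SELENOS, a membrane protein of the export complex, had the highest value, at 0.91 ± 0.12 (SE; adjusted p = 0.0047). Under compound 4, EDEM3, which trims sugar chains of misfolded glycoproteins, was the 1 gene that rose, by 0.60 ± 0.14 (adjusted p = 0.028; 2 genes with the block), and under compound 6 0 passed. EDEM3 also had the highest value under compound 6, at 0.56, and UFD1, a cofactor of the ATPase that extracts proteins from the ER, had the lowest under compounds 4, 5 and 6, at -0.40, -0.15 and -0.25, without passing. Among 16 genes of ER exit, SEC24D, SEC24A, SEC23B and SURF4 rose under compound 5 (7 genes with the block), with SEC24D, a coat protein that selects cargo, at 0.88 ± 0.12 (adjusted p = 0.0065). Under compounds 4 and 6, 0 of the 16 passed (1 under compound 4 with the block). The extremes were KDELR3 (0.52) and KDELR2 (-0.25) under compound 4 and KDELR3 (0.33) and SURF4 (-0.32) under compound 6, and KDELR2 was lowest under compound 5, at 0.10. Without either DMSO replicate the compound 5 counts of both lists became 0, and without compound 5 replicate 1 they became 1. The EDEM3 call was lost without either DMSO replicate and without compound 4 replicate 2.

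The 28 other folding factors stayed mostly short of the threshold. Under compound 5, FKBP14 rose by 0.79 ± 0.11 (SE; adjusted p = 0.0073) and CANX, the membrane-bound relative of calreticulin, by 0.40 ± 0.10 (adjusted p = 0.039), while PDIA5, another disulfide isomerase, fell by 0.53 ± 0.13 (adjusted p = 0.037). Under compound 4, DNAJC10, a J-domain reductase, rose by 0.55 ± 0.11 (adjusted p = 0.017), and under compound 6 0 passed. ERO1B, an oxidase that recharges the disulfide isomerases, had the highest value under compounds 4 and 6 (0.76 and 0.60) and CRELD2 the lowest (-0.71 and -0.57), while FKBP7 was lowest under compound 5 (-0.75), and none of these passed. With the block, 6 passed under compound 5 and 3 under compound 4. The compound 5 count became 0 without either DMSO replicate or compound 5 replicate 1, and 1 without either compound 6 replicate. The compound 4 count became 0 without either DMSO replicate or compound 4 replicate 2, 2 without compound 4 replicate 1, and 3 and 4 without compound 5 replicates 1 and 2.

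Of 8 sensors and ATF6 proteases, EIF2AK3, which encodes PERK, rose under compound 5 by 0.83 ± 0.14 (SE; adjusted p = 0.011), and MBTPS2, a protease that cuts ATF6, fell by 0.45 ± 0.12 (adjusted p = 0.047). ERN1, which encodes IRE1, had the highest value under all 3 compounds, at 0.79 ± 0.38, 1.18 ± 0.38 and 1.06 ± 0.38, and passed under none (adjusted p = 0.21, 0.083 and 0.18). CREB3L2 was lowest under compound 4, at -0.33, and CREB3L3 under compound 6, also at -0.33, without passing. The count under compound 5 became 0 without either DMSO replicate or compound 5 replicate 1, and 1 without compound 4 replicate 1 or either compound 6 replicate. With the block, 1 passed under compound 4.

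Among 11 tested genes of the PERK and ATF4 arm, 8 rose under compound 5, 2 under compound 4 and 1 under compound 6, with medians of 1.23, 0.91 and 0.94. Compared directly, 0 of the 11 passed between compounds 4 and 5 or between compounds 6 and 5, beside 0.313% and 1.03% of all tested genes. PPP1R15A, which restores translation after PERK has acted, had the highest value under compound 5, at 2.31 ± 0.45 (SE, adjusted p = 0.019), and DDIT4 the lowest, at 0.18 ± 0.16. The PPP1R15A replicates 1 and 2 stood apart, at 194 and 105 CPM under compound 5, 53.2 and 106 under compound 4, and 49.8 and 117 under compound 6. ASNS, asparagine synthetase, rose under compound 4 by 1.40 ± 0.25 (adjusted p = 0.012) and was the 1 gene that rose under compound 6, by 1.69 ± 0.25 (adjusted p = 0.033). VLDLR, a lipoprotein receptor, was the other gene that rose under compound 4, by 1.27 ± 0.32 (adjusted p = 0.038). PPP1R15A was also at 1.40 ± 0.45 under compound 4 without passing, and the lowest values under compounds 4 and 6 were those of DDIT4 (-0.23) and PPP1R15B (0.05). The 3 counts became 0 without either DMSO replicate, the compound 5 count 1 without compound 5 replicate 1, the compound 4 count 0 without compound 4 replicate 2, and the compound 6 count 0 without compound 6 replicate 2.

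Cytosolic heat shock proteins, which serve folding outside the ER, gave 0 of 13 past the threshold under each compound in edgeR's quasi-likelihood test. At an unadjusted p under 0.05 there were 1, 2 and 3 genes under compounds 4, 5 and 6, beside 27.5%, 28.4% and 18.6% of all tested genes. The DESeq2 Wald test called 1, 1 and 0, beside 10.9%, 11.4% and 4.33%. With the block, 2 passed under compound 4 and 2 under compound 5. HSPA8, the constitutive HSP70 of the cytosol, had the highest value under compounds 4 and 6, at 0.38 ± 0.12 (SE) and 0.10 ± 0.12, and BAG3 under compound 5, at 0.39 ± 0.14, although HSPH1 under compound 4 and HSPA8 under compound 5 had the same rounded values. The lowest values were those of HSPE1 under compounds 4 and 5 (-0.22 and -0.25) and HSPB1 under compound 6 (-0.42).

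Promoters that hold the same elements outside the 10 genes were read in the same way. The counts below stand beside 9.51%, 8.30% and 0.575% of all tested genes past the threshold under compounds 4, 5 and 6. Of 20 other genes with an ERSE, 10 were tested, and CANX, EIF2A, SERP1 and TRIM5 rose under compound 5, EIF2A rose under compound 4 and 0 passed under compound 6. Of 16 other genes with an ERSE-II, 11 were tested, and GYS1 fell under compounds 4 and 5. Among the 5 members with an ERSE, 0 passed under compound 5 and 2, CALR and XBP1, were lower under compound 4. Of the 3 members with an ERSE-II, HYOU1 (at the threshold, adjusted p = 0.0498) and HERPUD1 passed under compound 5, both higher, and SDF2L1 did not.

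Across the 8 libraries the 10 genes did not all vary together. This is described here by Pearson's r of log2(CPM + 0.5), with no test, since the points share groups, libraries and depth. The pairs of members named are those with the highest and the lowest r. DNAJB9 and HERPUD1 varied together (r = 0.96), as did CALR and PDIA6 (r = 0.96) and HSP90B1 and PDIA4 (r = 0.95), while DNAJB9 and XBP1 went in opposite directions (r = -0.59). The genes most like HSPA5 among all tested genes were USF1 (r = 0.983), SEH1L (0.972), SLC39A9 (0.968), TMED2 (0.967) and STT3A (0.966). The highest r of HSPA5 with another member was 0.83, with HSP90B1, so its pattern is not particular to the 10 genes. Among those most like HERPUD1 were COPB1 (0.994), NFIL3 (0.989), LYSMD3 (0.984) and TAF4B (0.981), and those most like XBP1 were CNTNAP1 (0.970), MEP1A (0.967), OTX1 (0.959), ZNF429 (0.959) and ASRGL1 (0.955).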

How the data were processed

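Whole-number gene counts deposited by the authors were used without change. According to the study's methods and the submitters' processing notes, the authors checked reads with FastQC 0.12.0, estimated transcripts with Salmon 1.5.0 on a GENCODE index of GRCh38, summed them to genes and tested with DESeq2 1.38.3. The column names show that replicate 1 of DMSO and of compound 4 were each merged from 2 runs. The library kit was directional, and the strand setting of the counting is not given in the sources used here.

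Here, genes passing edgeR's filter at a minimum count of 10 were normalized by TMM and tested with edgeR 4.0.16 (quasi-likelihood F-test) in R 4.3.3, over all 8 libraries without covariates. Total counts of 9791659 to 17814595 set the precision. Replicates differed by more than counting noise, with a median chi-square per gene of 1.43 to 3.25. Alternatives were DESeq2 1.42.0, its size factors, other filters, a fit of 4 libraries, leaving out each library and the replicate number as a block. Day 2 minus day 1 deviations correlated between groups at r = -0.16 to 0.30, so the numbers were not taken to pair the libraries, although the labels call them days. Values with the block stand beside member and list results or in the section on how the results depend on the processing. The scripts were tested on simulated data. Levels per kb use summed exon lengths and gene names of the reference annotation. The 10 genes, the 9 other lists and the comparisons were chosen with earlier results of these data known. Named were all 10 genes, the highest and lowest gene of a list, every gene of a list past the threshold where at most 6 were, and the 5 genes most correlated with HSPA5, XBP1 and HERPUD1, of which 1 is not reported here.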

Additional observations from a re-analysis of the deposited data

How the results depend on the processing

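Of the 10 genes, DNAJB9 under compound 5 was the call that passed under all 14 alternatives, and each of the 7 other member calls was lost without at least 1 of the libraries in turn, where the lone sample is assumed to vary like the other groups. Over all member values and alternatives, 767 kept their direction and side of the threshold, 32 lost a call, 43 gained one and 8 changed sign, all of these 8 short of the threshold, and the cause was not tested. A single compound stands below for its comparison with DMSO, and a pair for the comparison of both. The promoter counts, correlations and levels were not recomputed under the alternatives. With 2 libraries a group, small changes of the members could not be told from none. Their SEs against DMSO lay between 0.10, for HSP90B1, and 0.22, for HERPUD1.

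Without a filter on low counts, 23080 genes were tested in place of 13400. Then 2383 genes passed for compound 4, 2431 for compound 5 and 1355 for compound 6, against 1275, 1112 and 77 in the reported fit. Between the compounds, 750 passed for compounds 4 and 5, 259 for compounds 4 and 6 and 990 for compounds 6 and 5, against 42, 0 and 138. The members past the threshold were then 6, 5, 3, 4 and 6 for compound 4, compound 5, compound 6, compounds 4 and 5, and compounds 6 and 5. In compound 4 the lists then gave 1 ER exit, 2 translocation, 8 PERK arm, 5 folding, 2 heat shock and 1 sensor genes, in compound 5 they gave 8 ER exit, 6 folding, 1 heat shock and 3 hepatocyte genes, and in compound 6 they gave 9 PERK arm, 1 degradation, 5 folding, 3 heat shock, 5 hepatocyte and 1 sensor genes. Translocation genes were then 4 for compounds 4 and 5 and 14 for compounds 6 and 5.

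With the DESeq2 Wald test, 547 genes passed for compound 6, 210 for compounds 4 and 5, 59 for compounds 4 and 6 and 379 for compounds 6 and 5, with 5 members for compound 4, 2 for compound 6, 4 for compounds 4 and 5 and 5 for compounds 6 and 5. It called 2 folding and 1 heat shock genes in compound 4, 1 heat shock, 3 hepatocyte and 1 sensor genes in compound 5, 3 PERK arm, 2 folding and 4 hepatocyte genes in compound 6, and 2 and 13 translocation genes for compounds 4 and 5 and for compounds 6 and 5.

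With the replicate block, 1699 genes passed for compound 4, 1429 for compound 5 and 68 for compound 6. Between the compounds, 128 genes passed for compounds 4 and 5, 1 for compounds 4 and 6 and 269 for compounds 6 and 5, with 4 members in the last. The block gave 1 ER exit, 1 translocation, 2 degradation, 3 folding, 2 heat shock and 1 sensor genes in compound 4, and 7 ER exit, 8 degradation, 6 folding, 2 heat shock and 2 hepatocyte genes in compound 5. It gave 2 hepatocyte genes in compound 6, and 2 and 10 translocation genes for compounds 4 and 5 and for compounds 6 and 5. Beside the members named with it, it changed no member call. Crossing the compound 5 numbers in the replicate block, chosen after seeing the data, gave 76 genes and 1 member for compounds 4 and 5.

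Fits of the 4 libraries compared gave 1023 genes and 3 members for compound 6, 10 genes for compounds 4 and 5, and 49 genes and 1 member for compounds 6 and 5. Their lists held 5 PERK arm and 2 folding genes in compound 4, 3 hepatocyte and 1 sensor genes in compound 5, and 1 translocation, 4 PERK arm, 1 degradation, 5 folding, 4 hepatocyte and 1 sensor genes in compound 6, with 0 and 2 translocation genes for compounds 4 and 5 and for compounds 6 and 5. At least 10 counts in every library gave 198 genes for compound 6, 65 for compounds 4 and 5 and 5 for compounds 4 and 6, with 2 folding genes in compound 4 and 1 hepatocyte gene in compound 6. DESeq2 size factors gave 47 genes for compound 6.

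Leaving out each library in turn gave 43 to 1681 genes for compound 4, 46 to 1814 for compound 5, 2 to 432 for compound 6, 9 to 25 for compounds 4 and 5, 0 to 13 for compounds 4 and 6 and 0 to 105 for compounds 6 and 5. The members past the threshold were 0 to 4 for compound 4, 1 to 3 for compound 5, 0 to 2 for compounds 4 and 5 and 0 to 3 for compounds 6 and 5. Their median log2-fold change was -0.36 to -0.12 for compound 4, 0.03 to 0.29 for compound 5, -0.29 to -0.15 for compound 6, -0.49 to -0.33 for compounds 4 and 5 and 0.01 to 0.12 for compounds 4 and 6. The sign changed for CALR (-0.21 to 0.11), HSP90B1 (-0.09 to 0.04) and PDIA6 (-0.29 to 0.07) between compounds 4 and 6, for HYOU1 in compound 6 (-0.11 to 0.03) and for SDF2L1 in compound 5 (-0.10 to 0.36).

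For the lists this was chosen after seeing the data. In compound 4 it gave 0 to 1 ER exit, 0 to 1 translocation, 0 to 1 degradation, 0 to 3 PERK arm, 0 to 4 folding, 0 to 4 hepatocyte and 0 to 1 other cell type genes. In compound 5 it gave 0 to 6 ER exit, 0 to 12 translocation, 0 to 7 degradation, 0 to 9 PERK arm, 0 to 3 sensor, 0 to 4 folding and 0 to 3 hepatocyte genes, and in compound 6 it gave 0 to 1 degradation, 0 to 1 PERK arm and 0 to 3 hepatocyte genes. Translocation genes were 0 in each case for compounds 4 and 5 and 0 to 6 for compounds 6 and 5.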
